A study of Mus musculus with 19 samples.

Results

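Conventional dendritic cells of type 2 (cDC2) were compared between mice that lacked Xbp1 and Ire1 together and mice that lacked Xbp1 alone. The members were the 3 cDC2 libraries labelled Xbp1-Ire1 KO, below also the double knockout, and the 3 cDC2 libraries labelled Xbp1 KO, below also the single knockout, chosen by the genotype and cell type in their labels, 6 of the 19 libraries in the study. Both groups carry the loss of Xbp1 by their labels, and by their labels they differ in Ire1. All libraries came from spleen of C57BL6 mice, as bulk RNA-seq of 5000 to 50000 sorted cells, and the study was set up to compare genotypes within each cell type. Wild-type cDC2 (4 libraries) entered the same fit, and cDC1, the other conventional dendritic cell type (3 wild-type, 3 Xbp1 KO and 3 Xbp1-Ire1 KO libraries), provided the matching contrast. All wild-type libraries share the genotype label WT, but the descriptions of 2 of the 4 cDC2 (replicates 1 and 2) and 2 of the 3 cDC1 ones read XBP1fl-fl-IRE1fl-fl and those of the others XBP1-IRE1-WT. The labels name no Cre driver, deleted exon, age or sex, and they do not say whether replicates came from separate mice. The p-values therefore reflect only how these samples varied, and part of that variation may be technical.

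IRE1, encoded by Ern1, is a kinase and endoribonuclease in the endoplasmic reticulum (ER) membrane. When unfolded proteins accumulate, it cuts Xbp1 mRNA at a pair of stem-loops, and the rejoined mRNA encodes the transcription factor XBP1s, which drives genes for ER folding and secretion. IRE1 also cuts other ER-bound mRNAs, a process called regulated IRE1-dependent decay (RIDD). Overactivity of its RNase has been reported in some, not all, dendritic cells that lack XBP1.

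IRE1 cleaves at a loop whose core reads CTGCAG in the DNA sequence, and one of the Xbp1 splice sites has these letters. The matches in the coding sequence of Xbp1 and of 4 reported substrates are shown because the results turn on how differently those substrates behaved in the 2 cell types. Each is 30 bases of the mRNA sense strand in GRCm38, from the GENCODE M21 annotation, with CTGCAG in capitals.
Xbp1, exon 4 of 5, chr11:5524290-5524319, plus strand: ctatgtgcacctCTGCAGcaggtgcaggcc
Itgb2, exon 5 of 16, chr10:77547245-77547274, plus strand, the first of 5 matches: ggcggggacttgCTGCAGgccctcaacgag
Bloc1s1, exon 2 of 4, chr10:128922685-128922714, minus strand, one of 3 matches: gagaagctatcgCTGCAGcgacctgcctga
Tapbp, exon 5 of 8, chr17:33926223-33926252, plus strand, the only match: cagtctgggcacCTGCAGctacctccagtc
Hgsnat, exon 3 of 18, chr8:25971589-25971618, minus strand, the first of 2 matches: catgggtccatcCTGCAGgttaactccacc

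CTGCAG is its own reverse complement, so both strands give the same matches. It occurred in the coding sequence of 7755 of 10880 tested genes with a coding transcript (71.3%) and of 12 of 15 tested genes reported as IRE1 substrates (80%). No match was found in the coding sequence of Rnf130, St3gal5 or Ergic3. A match is a description of the sequence, not a cleavage site.

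The 6 libraries held 10606864 to 14649501 counts over 24421 gene symbols, and the 4 wild-type cDC2 libraries held 11536884 to 13377931. Levels below are CPM, counts scaled to a library of 1000000 with TMM factors that correct for composition. The cDC2 identity of the knockout libraries was clear in defining genes: unscaled Sirpa was 1346 to 1578 CPM against 5.31 to 68.0 CPM in cDC1, and Xcr1, a cDC1 receptor, was 5.66 to 10.3 CPM against 813 to 1281 CPM. In bulk RNA, fewer cells of a type and less RNA per cell cannot be told apart.

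Ern1 (ENSMUSG00000020715, chr11:106394650-106487852) was measured at 30.7, 27.0 and 26.7 CPM in the Xbp1 KO libraries and at 30.9, 21.2 and 21.8 CPM in the Xbp1-Ire1 KO libraries. The groups overlapped, and the difference on the log2 scale was −0.19 ± 0.20 (SE, n = 3 and 3, edgeR adjusted p = 0.838). Without Xbp1-Ire1 KO replicate 1 it was −0.40, also uncalled (edgeR adjusted p = 0.642). In cDC1 the same contrast gave a rise of 0.99 ± 0.17 (edgeR adjusted p = 0.00235), and the 2 cell types differed in it (interaction −1.16, adjusted p = 0.0191). A whole-gene count includes exons outside a deletion, so these values do not check the loss of IRE1 protein or RNase.

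Xbp1 (ENSMUSG00000020484, chr11:5520659-5525893) stood at 44.4, 56.9 and 42.0 CPM in the single knockout and at 63.3, 78.1 and 57.3 CPM in the double knockout. The groups did not overlap, and the difference was 0.47 ± 0.26 (edgeR adjusted p = 0.651), which did not pass the threshold. The wild-type cDC2 libraries had 160 and 103 CPM in replicates 1 and 2, described as XBP1fl-fl-IRE1fl-fl, and 72.6 and 76.4 CPM in the others. In cDC1 Xbp1 transcripts rose by 1.73 ± 0.18 (edgeR adjusted p = 3.66e-05), and the test of the difference between the cell types had an adjusted p of 0.0628.

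Between the libraries labelled Xbp1-Ire1 KO and Xbp1 KO, 4 of 11646 tested genes changed in cDC2 at an adjusted p under 0.05 (0.0343%), 3 higher (0.0258%) and 1 lower (0.00859%). They were Itgb2, Lsm12, Adamdec1 and Arf2. Without adjustment, 960 genes (8.24%) had a p under 0.05, 618 higher (5.31%) and 342 lower (2.94%). That count was 421 without Xbp1 KO replicate 2, 527 without Xbp1-Ire1 KO replicate 3 and 1536 without Xbp1-Ire1 KO replicate 2. The median change over all tested genes was 0.00 on the log2 scale and the median standard error was 0.22. For 8173 genes (70.2%) the 95% interval of the change lay within 2-fold in either direction.

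Itgb2 (ENSMUSG00000000290, chr10:77530252-77565708) encodes CD18, the beta chain shared by the leukocyte integrins, and is a reported RIDD substrate. It was at 735, 762 and 695 CPM in the single knockout and at 1169.6, 1191 and 1183 CPM in the double knockout. Every Xbp1-Ire1 KO library lay above every Xbp1 KO library, and the rise was 0.69 ± 0.10 on the log2 scale, or 1.62-fold (edgeR adjusted p = 0.0332). The wild-type libraries, at 927 to 1020.0 CPM, lay between the knockout groups. The fold change was stable at 0.65 to 0.71 over 19 alternative settings, but only 9 of these called it, and leaving out any 1 of the 6 knockout libraries, or wild-type replicate 1, 3 or 4, ended the call (adjusted p 0.0546 to 0.333), as did the replicate block (edgeR adjusted p = 0.0969).

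Lsm12 (ENSMUSG00000020922, chr11:102162497-102185296) encodes an LSM-family RNA-binding protein. It was at 37.9, 32.1 and 39.8 CPM in the single knockout and at 89.6, 87.8 and 101 CPM in the double knockout, a rise of 1.34 ± 0.15 or 2.53-fold (edgeR adjusted p = 0.00335). The groups were far apart, and the wild-type libraries, at 64.7 to 94.1 CPM, overlapped the double knockout and lay above every Xbp1 KO library. Against the same wild-type libraries, Xbp1 KO differed by −1.15 (edgeR adjusted p = 0.0043) and Xbp1-Ire1 KO differed by 0.19 (adjusted p = 0.724); these comparisons share libraries with the first. Over all 11646 genes, Xbp1 KO and wild type differed in 0.103% (0.0687% higher, 0.0343% lower), and Xbp1-Ire1 KO and wild type in 0.0258%, all higher.

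Arf2 (ENSMUSG00000062421, chr11:103966739-103985337), a small GTPase of the ADP-ribosylation factor family that acts in Golgi traffic, showed the opposite pattern. Its level was 105, 139 and 85.4 CPM in the single knockout and 33.1, 45.1 and 35.6 CPM in the double knockout, so it fell by 1.53 ± 0.21 on the log2 scale (2.90-fold, edgeR adjusted p = 0.0194). Wild-type libraries had 29.7 to 49.8 CPM and overlapped the double knockout; Xbp1 KO was above wild type by 1.50 (adjusted p = 0.00446) and Xbp1-Ire1 KO differed from it by −0.04 (adjusted p = 0.967). The call was lost, at adjusted p of 0.0805 to 0.222, when Xbp1-Ire1 KO replicate 1 or 3 or Xbp1 KO replicate 1 or 2 was left out.

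Adamdec1 (ENSMUSG00000022057, chr14:68563380-68582095), a secreted metalloprotease of the ADAM family, had no count in any of the 3 Xbp1 KO libraries. Its levels were 7.30, 4.20 and 5.69 CPM in Xbp1-Ire1 KO, 213 counts over the 3 libraries, and 6.98 to 9.23 CPM in wild-type cDC2. Against a floor of 3 counts over the whole Xbp1 KO group, it was at least 78.6-fold higher in Xbp1-Ire1 KO (edgeR adjusted p = 0.000341). It lies below the abundance limit of the rule for named genes and is named because it is 1 of only 4 called genes.

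**Figure D1:**
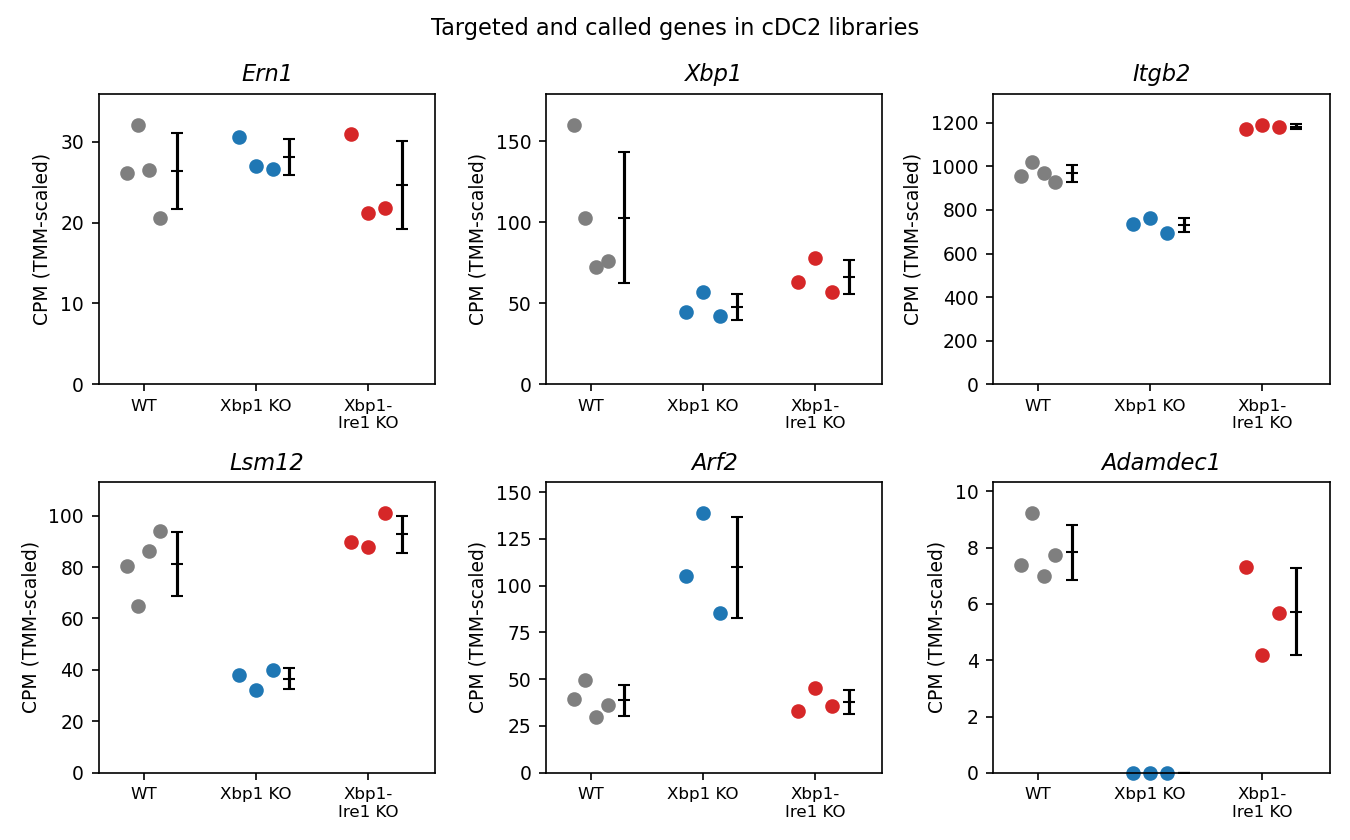
TMM-scaled CPM of 6 genes in each cDC2 library of the 3 genotypes (points), with the mean and SD of each group as a bar. Lsm12, Arf2 and Adamdec1 put the Xbp1 KO libraries apart from both other groups, whereas Itgb2 has wild type between the knockouts and Ern1 overlaps in all 3 groups.

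Genes that missed the threshold are given as values. Fgl2, a secreted fibrinogen-like protein with immunoregulatory functions, was at 591, 548 and 684 CPM in the single knockout and at 893, 1034 and 1060.3 CPM in the double knockout, without overlap (0.71 ± 0.14, edgeR adjusted p = 0.248). Epsti1, an interferon-inducible gene on chromosome 14, had a difference of 0.91 ± 0.18 (adjusted p = 0.248). Hmgb2, a chromatin protein of dividing cells, had 0.83 ± 0.19, and Ect2, a guanine nucleotide exchange factor needed for cytokinesis, had 1.01 ± 0.23, both with an adjusted p of 0.474. None of these 4 passed the test. They were picked among genes whose 2 groups did not overlap, so the lack of overlap follows from the choice.

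In the other direction, Arl5c, an ARF-like GTPase, was at 144, 132 and 139 CPM in the single knockout and at 50.8, 83.4 and 31.2 CPM in the double knockout (−1.33 ± 0.27, edgeR adjusted p = 0.318). It was called by 3 of 19 alternatives, with an adjusted p of 0.00984 without Xbp1-Ire1 KO replicate 2. Cx3cr1, the fractalkine receptor, had 96.3, 77.1 and 87.6 CPM against 59.8, 62.3 and 58.7 CPM (−0.53 ± 0.13). Sox4, a transcription factor, differed by −0.94 ± 0.22, Plxdc1, a plexin-domain membrane protein, by −0.67 ± 0.17 and Abca9, a lipid transporter of the ABC family, by −1.63 ± 0.38, each with an adjusted p of 0.474. These too were picked among genes whose groups did not overlap, a pattern shared by 1838 of all tested genes (15.8%), 8.72% higher and 7.07% lower.

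Of the 4 called genes, 2 lay near Ern1 on chromosome 11. Of 238 tested genes within 10 Mb of Ern1, 2 were called (Lsm12 and Arf2) and 19 (7.98%) had an unadjusted p under 0.01, against 9 of 734 (1.23%) on the rest of chromosome 11 and 186 of 10258 (1.81%) on chromosomes other than 11 and 14. Arl5c, Plxdc1 and Abca9 are among the 19, as are the replication licensing gene Cdc6, the DNA repair gene Brca1 and the erythroid gene Slc4a1, named after their values were seen. Chromosome 14, where Adamdec1 lies, had 18 of 394 genes (4.57%) below that p. Any difference between the 2 mouse lines other than the Ire1 deletion cannot be told apart from the deletion here.

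**Figure D2:**
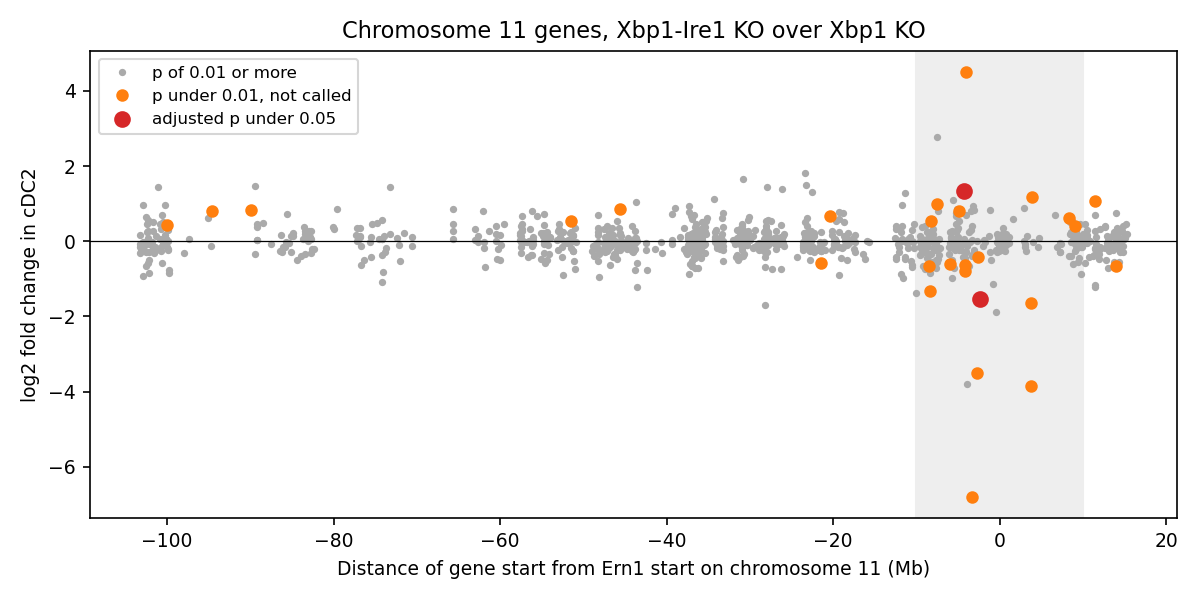
Log2 fold change in cDC2 between Xbp1-Ire1 KO and Xbp1 KO for each tested gene on chromosome 11, against the distance of its start from that of Ern1 in Mb; the grey band spans 10 Mb on either side. Of the 28 genes with an unadjusted p under 0.01, 19 lie in the band, among them both called genes.

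Mtmr9, a myotubularin-related gene on chromosome 14 named after its values were seen, showed a split within a group. Its levels were 101, 203 and 92.9 CPM in Xbp1 KO, 22.9, 88.2 and 24.1 CPM in Xbp1-Ire1 KO and 24.8 ± 1.67 CPM (SD, n = 4) in wild type. Replicate 2 was the highest library in each knockout group. The difference was −1.56 ± 0.43 (edgeR adjusted p = 0.474) and passed the threshold only without Xbp1-Ire1 KO replicate 2 (−2.50, adjusted p = 0.00574).

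Of 15 tested members of the reported substrate list, 1 rose (Itgb2), none fell, and the median change was −0.12 against 0.00 for all tested genes. Bloc1s1, a lysosome-positioning subunit and a widely used RIDD reporter, was at 26.5, 21.8 and 29.1 CPM in the single knockout and 38.9, 32.2 and 28.5 CPM in the double knockout, with overlapping groups (0.37 ± 0.17, edgeR adjusted p = 0.61). Tapbp, or tapasin, which loads peptides on MHC class I, was at 856, 830.4 and 792 CPM against 901, 837 and 933 CPM (0.11 ± 0.16, interval −0.23 to 0.44, adjusted p = 0.88). Hgsnat, a lysosomal acetyltransferase, gave −0.01 ± 0.14 with an interval of −0.32 to 0.29. St3gal5, the GM3 ganglioside synthase, gave 0.39 ± 0.16 (adjusted p = 0.583).

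The same contrast in cDC1 changed 1437 of 11353 tested genes (12.7%), 810 higher (7.13%) and 627 lower (5.52%). The precision was alike, with a median standard error of 0.21 in cDC1 and 0.22 in cDC2. Itgb2 went from 33.4, 37.1 and 32.1 CPM in cDC1 Xbp1 KO to 829, 938 and 885 CPM in cDC1 Xbp1-Ire1 KO, a rise of 4.69 on the log2 scale or 25.9-fold, against 1.62-fold in cDC2. Bloc1s1 rose by 4.12, Rnf130, a membrane-anchored ubiquitin ligase, by 4.44, Hgsnat by 3.27 and Tapbp by 2.72, where cDC2 had values of 0.37, 0.32, −0.01 and 0.11. In cDC1 Xbp1 KO these genes were at a small fraction of their cDC2 level: Rnf130, scaled separately in each cell type, was at 5.94 to 9.02 CPM there and at 308 to 314 CPM in cDC2 Xbp1 KO.

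A test of the difference itself, fitted over all 19 libraries, called 261 of 12185 genes (2.14%), 222 with a lower (1.82%) and 39 with a higher (0.32%) difference in cDC2. Of the 258 fitted in both cell types, 255 had the smaller absolute change in cDC2, and their median absolute log2 change was 0.14 in cDC2 against 1.48 in cDC1. The genes were selected by the difference between these 2 changes, so part of that gap follows from the selection. For Itgb2 the interaction was −3.98 (edgeR adjusted p = 1.33e-10), and for Rnf130 it was −4.11 (adjusted p = 6.66e-11). Only Itgb2 among the 261 was also called in cDC2.

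The lead genes of that test covered several functions. Ptger3, a prostaglandin E2 receptor, was at 65.0, 94.1 and 96.7 CPM in cDC2 Xbp1 KO and 73.4, 65.6 and 74.2 CPM in cDC2 Xbp1-Ire1 KO, a difference of −0.26, while it rose by 6.40 in cDC1 (interaction −6.64, edgeR adjusted p = 6.18e-09). Pbxip1, a nuclear hormone receptor cofactor, had 0.11 in cDC2 and 4.08 in cDC1. Slc1a5, a glutamine transporter, had 0.35 and 3.60, and the ER proteins Erp44 and Dnajb11 had 0.20 and 0.17 in cDC2 against 2.72 and 2.18 in cDC1. Fgl2 had 0.71 and 3.35 (interaction adjusted p = 3.97e-07). CTGCAG occurred in the coding sequence of 172 of 211 genes with a lower difference in cDC2 (81.5%) beside 71.3% of all tested genes, a description that carries no test.

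**Figure D3:**
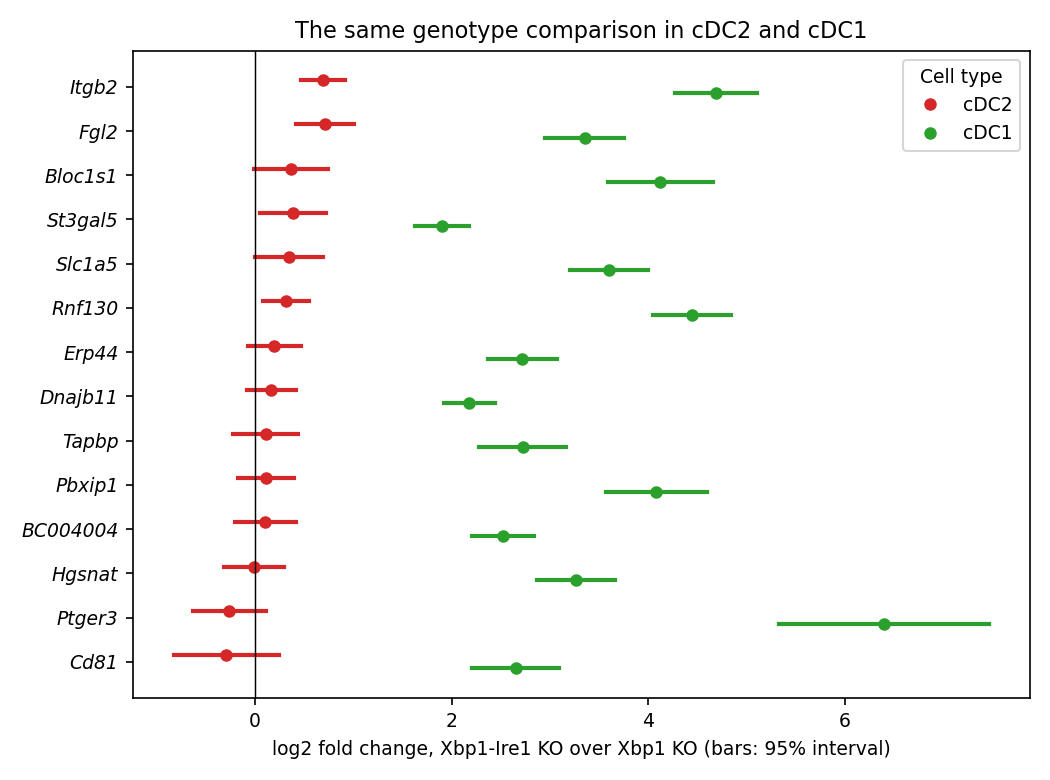
Log2 fold change of Xbp1-Ire1 KO over Xbp1 KO with its 95% interval for 14 genes in cDC2 (red) and cDC1 (green). Intervals of the 2 cell types are apart for every gene shown, with cDC2 values of −0.29 to 0.71 and cDC1 values of 1.90 to 6.40. All 14 were called in the test of the difference between the cell types, so their separation follows in part from that selection.

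Intervals bound what cDC2 could have shown. Of 311 genes that rose over 2-fold in cDC1, 297 were tested in cDC2, and for 234 of them the cDC2 interval ended below a 2-fold rise. Of all 11646 genes tested in cDC2, 8173 (70.2%) had an interval within 2-fold in both directions. That condition is stricter than either bound used in this paragraph, so the bounds are not particular to these genes. Over all 297, the median change was 0.10 in cDC2 and 1.59 in cDC1, where they were chosen for a rise over 2-fold. In cDC2, 2 of the 297 were called (Itgb2 and Lsm12), beside 0.0343% of all tested genes. Of 142 genes that fell over 2-fold in cDC1, 133 were tested, and 71 had a cDC2 interval that ended above a 2-fold fall. Over all 133, the medians were −0.28 in cDC2 and −1.36 in cDC1, where they were chosen for such a fall. Arf2 was the 1 gene of these called in cDC2, again beside 0.0343% of all tested genes.

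Genes of ER folding and secretion, the classical output of XBP1s, had no called member in cDC2. The median change was 0.08 over 31 ER chaperones and disulfide enzymes, 0.11 over 24 translocon and signal peptidase genes, 0.03 over 30 N-glycosylation genes, 0.05 over 39 ER-to-Golgi genes and −0.02 over 24 genes of ER-associated degradation. Dnajb11, an HSP40 cochaperone of the ER lumen, was at 101, 109.5 and 99.1 CPM in the single knockout and at 106, 123 and 118 CPM in the double knockout. Hspa5 (BiP), the main ER chaperone, had 1043, 1520.5 and 1409.6 CPM in the single knockout and 918, 1744 and 979 CPM in the double knockout, a difference of −0.13 ± 0.26 with overlapping groups. Sec61g, a translocon subunit, had the smallest p of these lists, from 33.4, 32.3 and 43.5 CPM to 61.5, 62.9 and 69.1 CPM (0.83 ± 0.20, edgeR adjusted p = 0.474). In cDC1, 22 of 31 chaperone and disulfide genes rose (7.13% of all tested genes did).

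The integrated stress response, in which PERK and related kinases induce ATF4 and CHOP, gave no called gene among 37 tested targets and a median of 0.03. In cDC1, 28 of 43 rose (7.13% of all tested genes did). Asns, asparagine synthetase, was between 0.09 and 1.97 CPM in the 6 cDC2 libraries, too low to show a change, and was at 70.6 to 106 CPM in cDC1 Xbp1 KO. Slc7a5, a large neutral amino acid transporter, had 0.45 ± 0.18 in cDC2 and 1.79 in cDC1 (interaction adjusted p = 0.019). Among 20 sensors and regulators of ER stress none was called, with a median of −0.06.

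Lipid genes gave a median of 0.16 over 26 cholesterol biosynthesis genes, with 18 above 0 and none called; Idi1 and Fdft1, early sterol enzymes, had 0.47 and 0.46. LXR targets and fatty acid genes had a median of −0.16, with 18 of 19 below 0 and none called. Apoe, a lipid carrier, was at 375, 301 and 167 CPM in the single knockout and 154, 218 and 152 CPM in the double knockout (−0.69 ± 0.24, edgeR adjusted p = 0.502). Apoe is also a macrophage product, and red pulp macrophage genes were highest in the same Xbp1 KO library, as given below. The part of macrophages in the Apoe value was not tested.

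Antigen presentation showed no called gene. The median was 0.13 over 20 MHC class I genes, 17 of them above 0, with B2m, the light chain, at 3277 to 3629 CPM in the single knockout and 3867 to 4373 CPM in the double knockout (0.23 ± 0.16). It was −0.11 over 18 MHC class II genes, with 14 below 0, where Cd74, the invariant chain, differed by −0.22 ± 0.13 and H2-Ab1, a class II beta chain, by −0.18 ± 0.12. The class I median was 0.05 without Xbp1-Ire1 KO replicate 1. The 27 genes of cDC2 identity had a median of −0.19, with 21 below 0 and none called, beside 5798 of all 11646 tested genes below 0. That median was −0.03 without Xbp1-Ire1 KO replicate 3 and −0.31 without replicate 2 of the same group. Esam, a marker of a splenic cDC2 subset, had −0.40 ± 0.19, and Clec4a2, a C-type lectin, had 0.52 ± 0.14 (adjusted p = 0.474).

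Homeostatic maturation, the process by which dendritic cells mature without infection, had no called gene in cDC2. The member with the smallest adjusted p was Arl5c, given above (−1.33, edgeR adjusted p = 0.318) and called by 3 of 19 alternatives. Of 47 tested genes the median in cDC2 was 0.02, with 24 above and 23 below 0. In cDC1, 18 fell and 3 rose (5.52% and 7.13% of all tested genes), with a median of −0.64. Ccr7, the receptor that guides dendritic cells to lymph nodes, was at 2079, 2120.0 and 1629 CPM in the single knockout and at 1539.9, 1889.7 and 1097 CPM in the double knockout, with overlapping groups (−0.36 ± 0.45, edgeR adjusted p = 0.865), and it fell by 2.01 in cDC1. That difference between the cell types was not called (interaction adjusted p = 0.299). Apol7c, a membrane-damaging apolipoprotein of dendritic cells, had −0.14 in cDC2 and −1.76 in cDC1 (interaction adjusted p = 0.00779). Il12b, the p40 chain of interleukin 12, had 0.79 ± 0.41 (adjusted p = 0.63).

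Proliferation genes had the largest median of the 22 lists of pathways and cDC2 identity. Of 32 tested members none was called. An unadjusted p under 0.05 held for 24, all higher, beside 5.31% of all tested genes. A value above 0 held for all 32 (50.2% of all tested genes), and 22 had groups that did not overlap (8.72% of all tested genes were higher without overlap). The median was 0.68, beside 0.00 for all tested genes. Pcna, the DNA polymerase clamp, was at 105, 88.9 and 116 CPM in the single knockout and at 148, 146 and 166 CPM in the double knockout (0.57 ± 0.13, edgeR adjusted p = 0.474). Tyms, thymidylate synthase, had 0.67 ± 0.16, Rrm2, a ribonucleotide reductase subunit, 0.95 ± 0.25, and Kif11, a spindle motor, 1.03 ± 0.28.

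The level of the proliferation list per library, as the mean log2 CPM of its members, was 5.51, 4.67 and 5.50 in the single knockout and 5.71, 5.90 and 6.21 in the double knockout. Wild-type cDC2 libraries had 5.19 to 5.78, overlapping both knockout groups. Xbp1 KO replicate 2 was the lowest library of all, and without it the median was 0.46 and 9 members had an unadjusted p under 0.05; 10 did without Xbp1-Ire1 KO replicate 3. The few tested erythroid genes separated the knockout groups in the same direction, with values given below, and their part was not tested. In cDC1 the list had a median of 0.72 and 10 of 32 rose (7.13% of all tested genes did). No member was called in the test of the difference between cell types.

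All 29 tested interferon-stimulated genes had values above 0, none was called, 8 had an unadjusted p under 0.05, and the median was 0.42. Of all tested genes, 50.2% had a value above 0 and 5.31% were higher at an unadjusted p under 0.05. The mean log2 CPM was 5.10, 4.58 and 4.73 in the single knockout and 5.54, 4.93 and 5.33 in the double knockout, with overlap, and wild type spanned 4.79 to 5.35. Oasl1, an antiviral 2'-5' oligoadenylate synthetase-like protein, had 8.46, 5.99 and 3.61 CPM against 16.6, 11.7 and 20.3 CPM (1.42 ± 0.37, edgeR adjusted p = 0.474). Irf7, the interferon regulatory factor, had 0.66 ± 0.23. The median ran from 0.23 without Xbp1-Ire1 KO replicate 1 to 0.60 without replicate 2 of the same group.

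All 25 tested immediate early genes, which respond within minutes to stimulation or tissue dissociation, had values below 0, and none was called. Of all 11646 tested genes, 5798 had values below 0. Their median was −0.34, and −0.21 without Xbp1 KO replicate 2. Their mean log2 CPM was 9.49, 9.71 and 9.21 in the single knockout and 9.12, 9.37 and 8.85 in the double knockout. The groups overlapped, and the wild-type libraries fell in 2 pairs, at 7.94 and 8.09 for those described as XBP1fl-fl-IRE1fl-fl and at 9.22 and 9.17 for the others. Junb, an AP-1 subunit, had −0.33 ± 0.18 and Ier2 had −0.38 ± 0.14 (edgeR adjusted p = 0.643 and 0.551). In cDC1, 16 of 25 fell (5.52% of all tested genes did), with a median of −0.89.

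**Figure D4:**
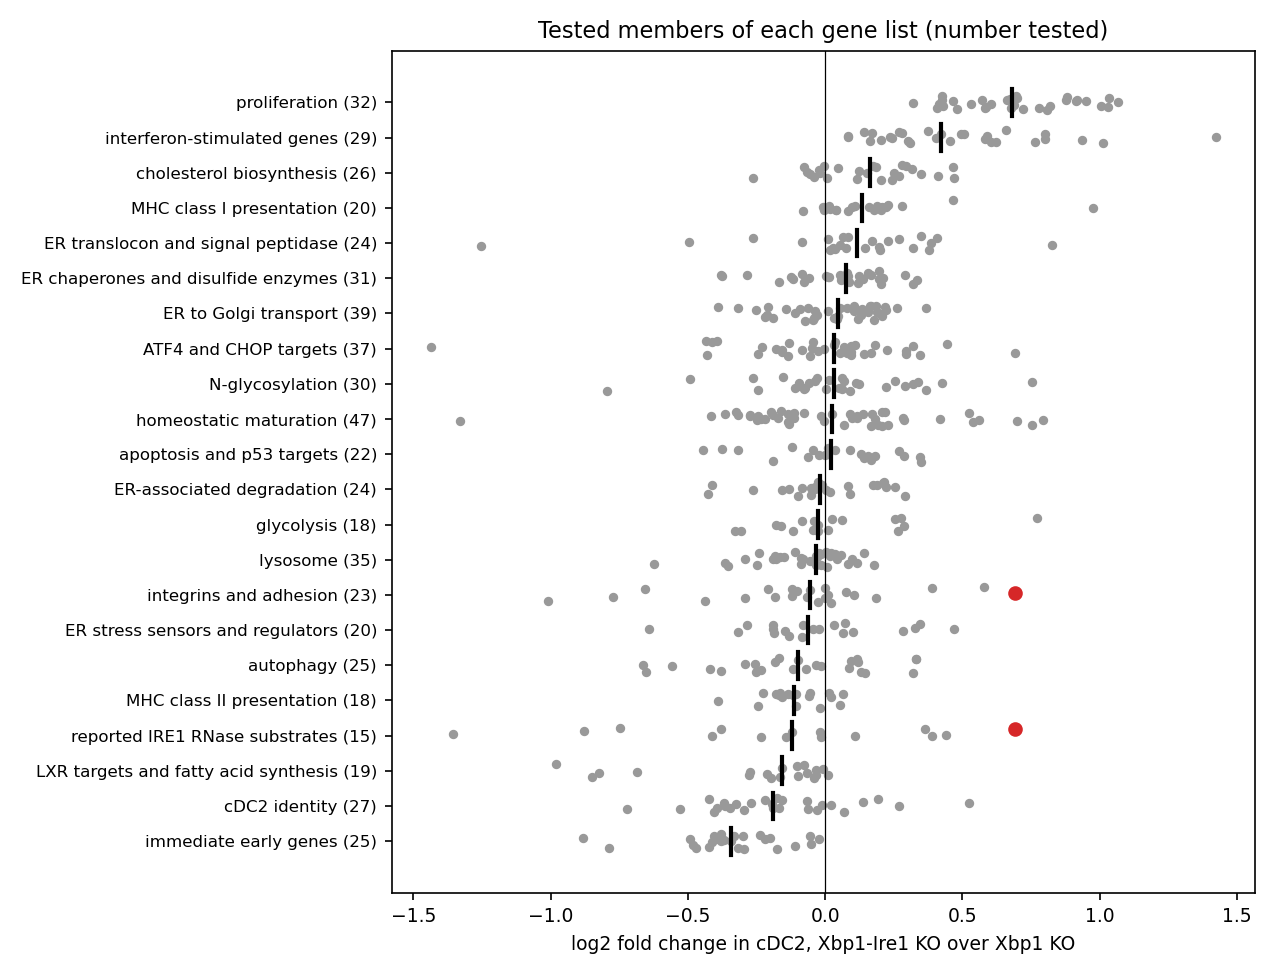
Log2 fold change in cDC2 (Xbp1-Ire1 KO over Xbp1 KO) of each tested member of 22 gene lists; grey points did not pass the test, red points did, and black bars mark the list median. Itgb2 is the red point in 2 lists, and the medians run from −0.34 for immediate early genes to 0.68 for proliferation.

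Markers of other cell types moved with some of these values. The 11 tested red pulp macrophage genes were all below 0 and none was called, with a median of −0.50; their mean log2 CPM was 7.22, 6.38 and 4.31 in the single knockout and 5.76, 6.40 and 5.26 in the double knockout. Xbp1 KO replicate 1 was the highest of all, and without it the median was 0.11. Their summed unscaled level was 541 to 2390.3 CPM in the single knockout and 806 to 1426 CPM in the double knockout. The 4 tested erythroid genes had values above 0, all 4 with an unadjusted p under 0.05 (2 without Xbp1-Ire1 KO replicate 1 or without Xbp1 KO replicate 2) and none called, and their median was 2.48 (Alas2, the heme synthesis enzyme, 2.43 ± 1.01, edgeR adjusted p = 0.586). Their mean log2 CPM was 1.00, −0.43 and 0.05 in the single knockout and 3.41, 1.80 and 2.61 in the double knockout, without overlap, and −0.53 to 2.41 in wild type. Their summed unscaled level was low, at 9.59 to 21.04 CPM against 21.7 to 56.8 CPM. The 10 tested B cell genes had a median of −0.44, which was −0.06 without Xbp1 KO replicate 1 and −0.70 without Xbp1 KO replicate 3. The part of these cells in the results above was not tested.

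Transcript length moved with the contrast as well. The median change was 0.13 among the shortest of 4 equal bins of 2720 tested genes by transcript length. It was 0.01 and −0.02 in the middle bins and −0.09 among the longest. At an unadjusted p under 0.05, 293 genes were higher and 40 lower in the shortest bin. These counts were 126 and 58, then 99 and 82, in the middle bins and 65 and 137 in the longest. Of 80 cytosolic ribosomal protein genes, 77 had a value above 0, with a median of 0.25 and none called. The shift was not uniform within genotypes: the level of short minus long transcripts was −0.09, −0.24 and −0.07 in the single knockout and 0.18, −0.14 and 0.23 in the double knockout. Proliferation medians within the bins, from shortest to longest, were 0.88, 0.78, 0.56 and 0.74, and those of immediate early genes were −0.30, −0.35, −0.34 and −0.79. Those of interferon-stimulated genes were 0.41, 0.58, 0.40 and 0.12, with 2 genes in the longest bin. The part of transcript length in the remaining lists was not tested.

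**Figure D5:**
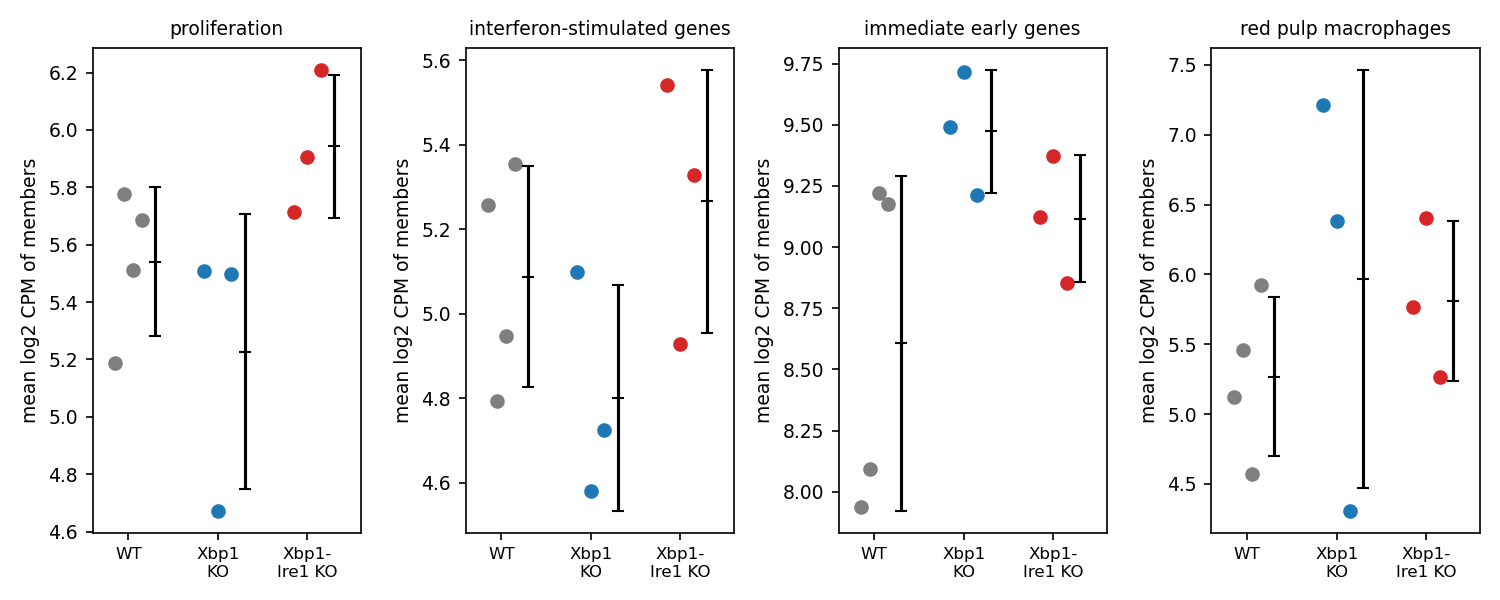
Mean log2 CPM of the tested members of 4 gene lists in each cDC2 library (points), with the mean and SD of each group as a bar. The proliferation list separates the knockout groups, with 4.67 to 5.51 in the single knockout and 5.71 to 6.21 in the double knockout, whereas the other 3 lists overlap between them.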

How the data were processed

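RNA-seq of sorted splenic dendritic cells was read from 2 tables of whole-number counts per gene, one per cell type, deposited by the authors; a second pair of tables holds their normalized log2 values, deposited by the authors. Per the submitters' processing notes, reads went through Trimmomatic 0.35 with FastQC 0.11.4 and TopHat2 2.1.0 (mm10) with SAMtools 0.1.19, in an order the notes do not give, and limma 3.42.2 was used by the authors; counting program, annotation and strand setting are not stated there, so overlapping and antisense genes cannot be separated. The log2 values served only as an alternative.

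Genes passing edgeR's filterByExpr (minimum count 10, minimum total 15) were scaled with TMM and tested with edgeR's quasi-likelihood test (edgeR 4.0.16, R 4.3.3) over the 10 cDC2 libraries, without covariates, Benjamini-Hochberg adjusted across the whole table at a threshold of 0.05. Log2 CPM used a prior count of 2. The interaction was fitted on all 19 libraries in 6 groups. Alternatives used DESeq2 1.42.0, limma 3.58.1, other filters and scalings, a replicate block and leaving out each library. Counts were simulated for 11471 genes of the cDC2 comparison, with 200 changed genes planted. There 49% of 2-fold and 79% of 4-fold changes were recovered, and 2 unchanged genes were called. For the interaction (11956 genes, 200 planted) these were 26%, 73% and 2. The real cDC2 comparison called only 4 genes, so its adjusted threshold was stricter and recovery there may be lower.

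Genes named were Ern1, Xbp1 and called genes of mean log2 CPM of at least 3 without group overlap. The called genes were filled to 6 in each direction by smallest p among uncalled genes that met the same conditions. Up to 4 members of each list by smallest p, the most abundant markers and the leading interaction genes were also named. Others were named after their values were seen. Adamdec1, Mtmr9, Tapbp, Cd81, Hspa5, Asns, Ccr7, Apol7c, Tlr11, Cdc6, Brca1 and Slc4a1 are the latter. Members and gene lists were chosen with earlier results of these data known. Positions came from GENCODE M21 on GRCm38, the genome of mm10. Figures were drawn with matplotlib 3.10.9.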

Additional observations from a re-analysis of the deposited data

Results flagged for a closer look

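In the test of the difference between the cell types, 18 of the genes named for their values passed at an adjusted p under 0.05. Their change from Xbp1 KO to Xbp1-Ire1 KO differed between cDC2 and cDC1. The values here are the cDC2 change minus the cDC1 change on the log2 scale. For reported IRE1 substrates among these they were −3.98 (Itgb2), −3.74 (Bloc1s1), −3.27 (Hgsnat), −2.60 (Tapbp) and −1.50 (St3gal5). The whole reported substrate list had 6 of 16 members called lower in this test, beside 1.82% of all tested genes. Genes of other functions had −6.64 (Ptger3), −4.11 (Rnf130), −3.96 (Pbxip1), −3.24 (Slc1a5), −2.93 (Cd81), −2.62 (Fgl2), −2.51 (Erp44), −2.40 (BC004004), −1.997 (Dnajb11) and −1.32 (Slc7a5). Ern1 itself had −1.16. Ergic3, named above only for its coding sequence, was also called, at −2.07, and is not counted among the 18.

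Apol7c had 1.63, since it was lower in cDC1 and near 0 in cDC2. Cd37, a tetraspanin of the integrin and adhesion list, had −1.18: it was at 86.4, 101 and 84.8 CPM in cDC2 Xbp1 KO and at 55.7, 57.5 and 59.5 CPM in cDC2 Xbp1-Ire1 KO (−0.65, edgeR adjusted p = 0.474), while it rose by 0.54 in cDC1 (edgeR adjusted p = 0.0434). These genes were picked from the data and from earlier results, and no cause was tested.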

How the results depend on the processing

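The count of 4 called genes was 11 with DESeq2, 6 without a filter on low counts, 3 with the replicate block (Itgb2 lost) and 2 to 8 when 1 library was left out, with 2 without Xbp1-Ire1 KO replicate 1 or 3 or Xbp1 KO replicate 1 and 8 without Xbp1-Ire1 KO replicate 2. It stayed at 4 with RLE size factors, library sizes alone, a minimum count of 50, limma on the deposited log2 values, limma-voom and the knockout groups alone. All 4 genes were among the 11 of DESeq2. Adamdec1 and Lsm12 were called in all 19 alternatives, Arf2 in 15 and Itgb2 in 9. The cause of the differences between settings was not tested. The 261 genes of the interaction became 464 with DESeq2, 285 with the replicate block and 194 to 261 when 1 library was left out.

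By the replicate numbers in the titles, same-numbered Xbp1 KO and Xbp1-Ire1 KO libraries had deviation correlations of 0.02, 0.23 and 0.18, so not every pair exceeded 0.1 and the samples share only a number. The third pair carries the numbers 3 and 4 in the descriptions. Each library correlated best with its own title number, a hint from the data and not the design; the other pairs had −0.22 to 0.01. Within 10 Mb of Ern1, 1 to 4 genes were called over the alternatives, an added count chosen after seeing the data, as were the medians by transcript length. At this depth and replicate number a 2-fold change was often missed in the simulation of the processing section, which held 200 changed genes. Of the genes named, Hgsnat, Hspa5, Asns and Apol7c, all uncalled in cDC2, changed sign in at least 1 setting.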

Other observations

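Autophagy genes and a Toll-like receptor, not described above, are given here as values in cDC2. Gabarapl1, an autophagosome protein, was at 51.5, 45.3 and 41.3 CPM in the single knockout and at 35.1, 33.8 and 18.8 CPM in the double knockout (−0.65 ± 0.25, edgeR adjusted p = 0.55), and Atg3, which attaches such proteins to lipid, had 0.32 ± 0.13 (adjusted p = 0.583). No member of the 25 tested autophagy genes was called. Tlr11, a receptor for protozoan profilin, was at 51.4, 74.7 and 60.1 CPM in the single knockout and at 42.0, 46.3 and 26.1 CPM in the double knockout (−0.70 ± 0.21, edgeR adjusted p = 0.474); wild-type cDC2 had 33.4 to 46.0 CPM. Tlr11 fell by 0.86 in cDC1.

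Chromosome 14 held 58 called genes of 373 tested in the cDC1 contrast (15.5%), and 42 of 231 genes within 10 Mb of Ern1 were called there (18.2%), beside 12.7% of all genes tested in cDC1. Lsm12 and Arf2 changed in cDC1 in the same direction as in cDC2, by 1.05 and −1.72, and the test of the difference between the cell types called neither (adjusted p = 0.543 and 0.841).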
